A study of Mus musculus with 4 samples.

Results

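The spindle assembly checkpoint and the mitotic kinases were followed through 10 genes in mouse liver: the checkpoint genes Ttk, Bub1, Bub1b, Bub3 and Mad2l1, the checkpoint's target Cdc20, the kinase genes Plk1, Aurka and Aurkb, and Birc5, which encodes survivin. Members were all probe sets whose single gene symbol in the platform annotation was 1 of these 10. A probe set is the group of short oligonucleotides that reads 1 transcript on an Affymetrix array. The rule gave 14 probe sets, for 9 of the 10 genes, among 12488 on the MG_U74Av2 array. For Bub1b no probe set had that single symbol, so its signal was not analysed here and only its promoter was read. Total liver RNA came from 2 groups with 2 arrays each. The PEPCK-TAg mice carry the large T and small t antigens of SV40 behind the promoter of the phosphoenolpyruvate carboxykinase gene, which is active in liver, and the wild-type mice carry no transgene. All animals were B6SJL hybrid males aged 58 to 60 days, fed freely for the 4 weeks after weaning with food holding 10% protein and 70% carbohydrate. The labels speak of duplicate measurements and do not say whether arrays of a group came from separate mice, so the spread behind each p-value may be only technical.

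During mitosis the checkpoint holds back the separation of sister chromatids until every chromosome is attached to the spindle. The kinase TTK starts the signal at unattached kinetochores, BUB1 and BUB3 build the platform there, and MAD2 with the BUB1B protein blocks CDC20, the activator of the anaphase promoting complex. PLK1 and Aurora A build and orient the spindle, while Aurora B and survivin, in the chromosomal passenger complex, correct faulty attachments. Most hepatocytes of an adult liver rest outside the cell cycle. The RNA of most of these genes is known to accumulate in the G2 and M phases of dividing cells.

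Signals of 7 of the 9 genes rose in PEPCK-TAg liver, where 6.83% of 5650 tested genes rose. Of the 7, Ttk, Aurka and Birc5 had wild-type means below the filter on low values and were tested because of their PEPCK-TAg signal. In 13 of 14 probe sets the lower PEPCK-TAg array exceeded the higher wild-type array, as it did in 26.5% of all probe sets other than controls. The genes Ttk, Bub3, Mad2l1, Cdc20, Plk1, Aurka and Birc5 each had at least 1 probe set that rose, by 0.98 to 3.20 on the log2 scale. No change passed the test for Bub1 or Aurkb, whose mean signals lay below the filter on low values. Among the risers, Birc5, Cdc20, Aurka, Ttk and Mad2l1 changed by more than 2 on the log2 scale, and Bub3 and 2 probe sets of Plk1 by about 1.

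**Figure D1:**
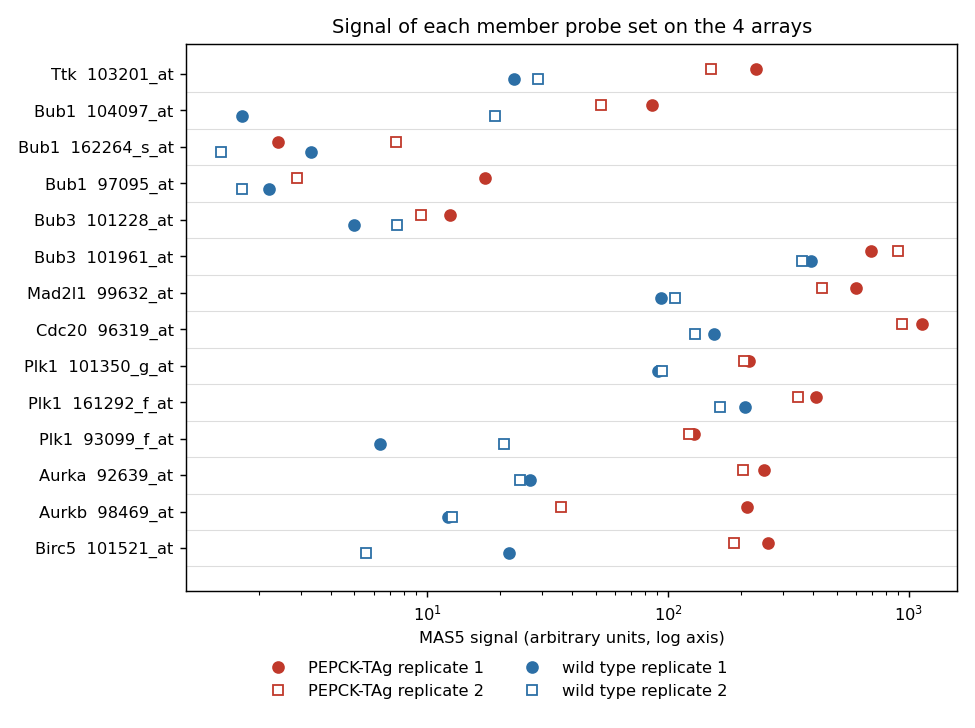
MAS5 signal of each of the 14 member probe sets (rows) on a log axis, with a point per array, filled for replicate 1 and open for replicate 2. PEPCK-TAg points lie to the right of wild-type points in 13 of 14 rows; the exception is the Bub1 probe set 162264_s_at, where the groups overlap.

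The promoters of the members were read for letters known from genes of mitosis: the cell cycle homology region TTTGAA and its variant TTCGAA, the box CCAAT, and sites of E2F, each searched on both strands. The E2F sites searched were spelled TTTGGCG and also as TTTCGCG, besides those that were spelled TTTGCCG and those spelled TTTCCCG. Windows of 300 bases came from RefSeq on GRCm38.p6, from 250 bases before to 50 bases after the gene start, and were at hand for 9 of the 10 genes (Aurkb is the other). TTTGAA stood in the windows of 6 genes, Aurka, Bub1b, Bub3, Cdc20, Plk1 and Ttk, and in 17.9% of 32851 promoters of the same length. CCAAT stood in windows of the same 6 genes and of Bub1, against 37.4% of all promoters. Both together stood in 6 genes, against 6.95% of all promoters. Bub3 had an additional, overlapping window that also held both. Counted by window, TTTGAA stood in 7 of 10 and CCAAT in 8 of 10. TTCGAA was found for Bub1 and Bub1b (1.56% of all) and an E2F form for Birc5 alone (6.70% of all); none of these letters was in the Mad2l1 window. Of the genes below, Cdc20, Plk1 and Aurka are shown as risers with both motifs and Birc5 as the member with an E2F form, with every match in capitals.
Cdc20 (chr4:118437294-118437593, minus strand): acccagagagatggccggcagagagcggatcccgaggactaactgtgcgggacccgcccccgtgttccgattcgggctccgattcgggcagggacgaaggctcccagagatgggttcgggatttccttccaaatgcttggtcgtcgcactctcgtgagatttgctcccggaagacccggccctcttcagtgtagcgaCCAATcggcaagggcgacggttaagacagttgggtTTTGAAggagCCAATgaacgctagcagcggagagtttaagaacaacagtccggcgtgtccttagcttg
Plk1 (chr7:122159185-122159484, plus strand): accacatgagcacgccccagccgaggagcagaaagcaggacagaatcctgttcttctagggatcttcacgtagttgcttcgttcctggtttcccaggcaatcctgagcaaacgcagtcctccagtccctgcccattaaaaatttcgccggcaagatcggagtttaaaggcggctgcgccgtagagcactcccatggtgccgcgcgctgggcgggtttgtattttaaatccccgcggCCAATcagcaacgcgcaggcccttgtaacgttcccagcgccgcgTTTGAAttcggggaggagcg
Aurka (chr2:172370521-172370820, minus strand): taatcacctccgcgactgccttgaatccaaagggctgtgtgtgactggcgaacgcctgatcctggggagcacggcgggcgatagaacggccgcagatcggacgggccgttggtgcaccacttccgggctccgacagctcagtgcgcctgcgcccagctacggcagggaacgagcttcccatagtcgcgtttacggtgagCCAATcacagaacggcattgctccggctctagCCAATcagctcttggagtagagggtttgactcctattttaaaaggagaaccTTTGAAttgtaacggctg
Birc5 (chr11:117848987-117849286, plus strand): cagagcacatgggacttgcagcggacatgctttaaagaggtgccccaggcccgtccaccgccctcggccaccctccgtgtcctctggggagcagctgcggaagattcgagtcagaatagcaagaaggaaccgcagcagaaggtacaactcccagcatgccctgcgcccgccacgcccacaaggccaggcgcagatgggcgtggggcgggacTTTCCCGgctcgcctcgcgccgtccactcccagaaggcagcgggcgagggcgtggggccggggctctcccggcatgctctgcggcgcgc
Counted from 1 at the 5′ end of each window, CCAAT began at bases 198 and 243 and TTTGAA at base 233 in Cdc20. In Plk1 CCAAT began at base 237 and TTTGAA at base 281, and in Aurka CCAAT began at bases 200 and 232 and TTTGAA at base 283. The E2F form TTTCCCG began at base 212 in Birc5. These matches describe letters and show no binding. The Birc5 window held neither TTTGAA nor CCAAT.

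Values are MAS5 signals, a linear measure of brightness in arbitrary units, and levels of different probe sets are not comparable with each other. Changes are differences of log2(signal + 13), PEPCK-TAg minus wild type, with limma's standard error (SE) and a Benjamini-Hochberg adjusted p, and a gene rose or fell where that p was under 0.05. Probe sets were tested where their mean reached the 40th percentile, near a signal of 48.1, and 8 of the 14 did so. Of the 7453 probe sets tested on the array, 6.4% were called higher and 3.07% lower, against 5.41% and 5.49% with arrays centred on their medians. Centring made the median change of all tested probe sets -0.14 instead of 0.01, and no direction flipped among the tested member probe sets. The 8 tested member probe sets, of 7 genes, were all called higher. Those of Ttk, Aurka and Birc5 had wild-type means below the filter and were tested because of their PEPCK-TAg signal, so their share says little by itself. With no filter, 8 of all 14 were called higher and 0 lower, against 2.71% called higher of 12422. With PEPCK-TAg replicate 1 left out 5 member probe sets were called higher (4.24% of all tested), and 5 with replicate 2 left out (3.86% of all tested). Without wild-type replicate 1 there were 8 (4.47% of all) and without wild-type replicate 2 there were 7 (5.64% of all), each including Plk1 93099_f_at, which passed the filter there. Aurkb 98469_at also passed the filter without either wild-type array, where it changed by 2.03 and 2.06 on the log2 scale and was not called. With the filter at the 60th percentile 5 of 5 member probe sets were called (7.1% of all).

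Ttk, the kinase that starts checkpoint signalling, had signals of 230.7 and 150.3 in PEPCK-TAg liver and of 22.9 and 28.9 in wild-type liver. The groups were well apart, the lower PEPCK-TAg array having 5.20 times the signal of the higher wild-type one, and the change was 2.36 ± 0.28 (log2 change ± SE, n = 2 arrays a group; limma adjusted p = 0.00577). Mad2l1, the inhibitor of CDC20, measured 600.2 and 434.2 in PEPCK-TAg against 93.6 and 106.4 in wild type. It rose by 2.21 ± 0.21 on the log2 scale (limma adjusted p = 0.00242). Here the wild-type arrays were above the filter too.

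Bub3, whose protein docks BUB1 and BUB1B at kinetochores, was read by 2 probe sets. The bright one, 101961_at, measured 693.3 and 895.9 in PEPCK-TAg and 393.6 and 360.1 in wild type. It rose by 1.04 ± 0.19 (log2 change ± SE), with a limma adjusted p of 0.0200. Its groups did not overlap, but the call rested on few arrays, with limma adjusted p of 0.0760 without PEPCK-TAg replicate 2, 0.0516 without wild-type replicate 1 and 0.0610 without wild-type replicate 2. The dim one, 101228_at, measured 12.5 and 9.4 in PEPCK-TAg and 5.0 and 7.5 in wild type, below the filter. In the fit without a filter its change was 0.32 (limma adjusted p = 0.402).

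Bub1, a checkpoint kinase, had 3 probe sets, all below the filter. The brightest, 104097_at, measured 86.1 and 52.6 in PEPCK-TAg and 1.7 and 19.1 in wild type. Its groups were apart, and in the fit without a filter the change of 1.89 ± 0.45 (log2 change ± SE) had a limma adjusted p of 0.0930, with a 95% interval from 0.76 to 3.02. Probe set 162264_s_at gave 2.4 and 7.4 in PEPCK-TAg against 3.3 and 1.4 in wild type, and its groups overlapped. Probe set 97095_at gave 17.4 and 2.9 in PEPCK-TAg against 2.2 and 1.7 in wild type, where the lower PEPCK-TAg array was close to the wild-type arrays.

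Cdc20, which switches on the anaphase promoting complex once the checkpoint is satisfied, measured 1135.8 and 931.9 in PEPCK-TAg and 155.6 and 129.9 in wild type. Mean signals were 1034 ± 144 in PEPCK-TAg and 142.8 ± 18.2 in wild type (SD, n = 2 each), a ratio of 7.24. The rise of 2.75 ± 0.19 (log2 change ± SE) had the smallest p among the members (limma adjusted p = 0.00139). Cdc20 and its inhibitor Mad2l1 thus rose together, and their 95% intervals on the log2 scale, 2.30 to 3.19 and 1.71 to 2.72, overlapped.

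Plk1, a kinase of spindle building and mitotic exit, was read by 3 probe sets that gave different sizes. Probe set 101350_g_at measured 216.9 and 207.5 in PEPCK-TAg and 91.0 and 94.5 in wild type, and 161292_f_at measured 409.1 and 347.4 in PEPCK-TAg against 208.4 and 164.5 in wild type. They rose by 1.09 ± 0.18 and 0.98 ± 0.19 (log2 change ± SE), with limma adjusted p of 0.0159 and 0.0277. The third, 93099_f_at, measured 127.6 and 122.4 in PEPCK-TAg against 6.4 and 20.9 in wild type. It lay just under the filter, at percentile 39.5 of mean signal, and in the fit without a filter it changed by 2.43 ± 0.36 (limma adjusted p = 0.0322). The groups were apart in all 3, so the probe sets share the direction, with sizes of 0.98 to 2.43 whose difference was not tested. The suffixes g and f mark oligonucleotides that can also match related transcripts, and whether they do so here was not tested. For 101350_g_at the call was lost without PEPCK-TAg replicate 1 (limma adjusted p = 0.0719) and without PEPCK-TAg replicate 2 (limma adjusted p = 0.0591). For 161292_f_at it was lost without PEPCK-TAg replicate 1 (limma adjusted p = 0.107), without wild-type replicate 2 (limma adjusted p = 0.0784) and without a filter (limma adjusted p = 0.0584).

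Aurka, the Aurora kinase of spindle poles, measured 249.8 and 204.3 in PEPCK-TAg and 26.8 and 24.3 in wild type. Its arrays were close within each group, and it rose by 2.63 ± 0.23 (log2 change ± SE; limma adjusted p = 0.00186). Aurkb, the Aurora kinase of the passenger complex, measured 212.0 and 35.8 in PEPCK-TAg and 12.2 and 12.7 in wild type. Both PEPCK-TAg arrays were higher, but they differed from each other by a factor of 5.92. Its mean lay below the filter, at percentile 36.1 of mean signal, and in the fit without a filter the change of 2.04 ± 0.71 had a limma adjusted p of 0.199 and a 95% interval from 0.28 to 3.80. Birc5, whose product survivin brings Aurora B to the centromere, measured 260.4 and 187.1 in PEPCK-TAg and 21.8 and 5.6 in wild type. Birc5 rose by 3.20 ± 0.37 (log2 change ± SE; limma adjusted p = 0.00505), and its ratio of mean signals was 16.3. The wild-type arrays were dim and unequal, and the size depended on the offset: on the log2 scale the change was 4.18 with an offset of 1 and 2.07 with an offset of 52. Birc5 fell below the filter without either PEPCK-TAg array and was not tested there.

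**Figure D2:**
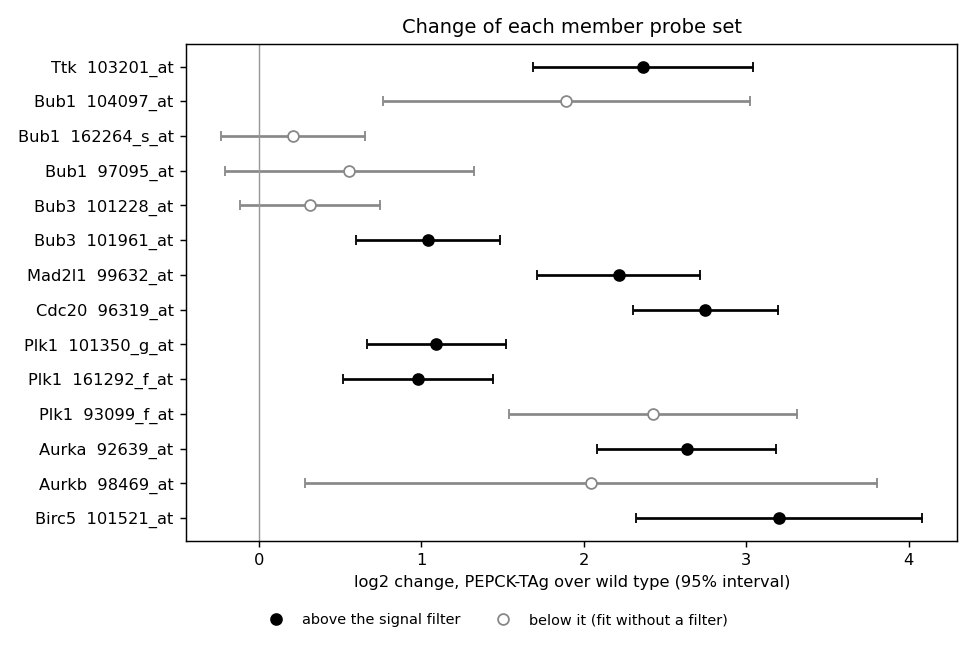
Change of each member probe set on the log2(signal + 13) scale, PEPCK-TAg over wild type, with limma's 95% interval; filled points passed the signal filter and open points come from the fit without a filter. The 3 dimmest probe sets of Bub1 and Bub3 have intervals that include 0.

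Ordered by the size of the change, Birc5 (3.20), Cdc20 (2.75), Aurka (2.63), Ttk (2.36) and Mad2l1 (2.21) came first, each neighbour lying inside the 95% interval of the one before it. With an offset of 52 Cdc20 (2.48) came before Birc5 (2.07), so the order of these genes depends on the offset. Plk1 (1.09 and 0.98) and Bub3 (1.04) followed, and the upper limits of these 3 probe sets, 1.44 to 1.52, lay below the lower limits of the other five, 1.69 to 2.32. For Plk1 this holds for 2 of its 3 probe sets, since 93099_f_at, below the filter, changed by 2.43 with an interval from 1.54 to 3.31. The calls of Ttk, Mad2l1, Cdc20 and Aurka held in each alternative in which they were tested, that of Birc5 in each of 9.

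**Figure D3:**
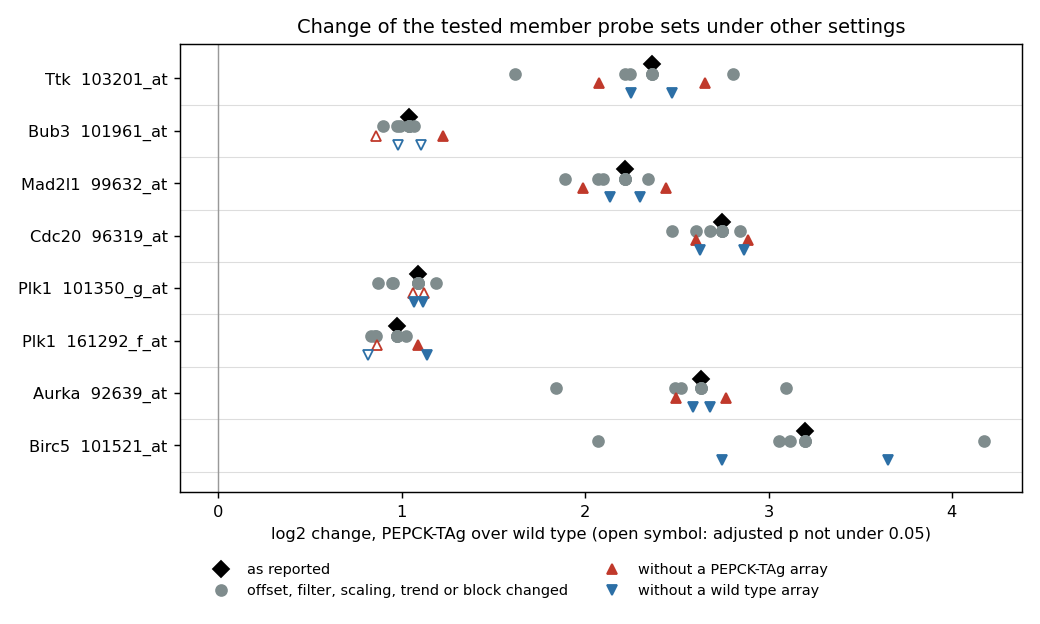
Change of the 8 tested member probe sets (rows) on the log2 scale as reported and under each alternative setting, with open symbols where the adjusted p was not under 0.05. Open symbols appear only for Bub3 and for the 2 Plk1 probe sets, and every change stays above 0; symbols of equal value cover each other.

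Within PEPCK-TAg, the array of replicate 1 had the higher signal in 7 of the 8 tested member probe sets, Bub3 being the exception, and in 50.6% of all tested probe sets. The median difference, replicate 1 minus replicate 2, was 0.28 on the log2 scale for the members and 0.00 for all. Markers of dividing cells had the same order in 8 of 9 genes, with a median of 0.49. Macrophage and neutrophil markers had the opposite order, 14 of 16 being higher in PEPCK-TAg replicate 2, and 14 of 16 also in wild-type replicate 2. Hepatocyte markers had the members' order in 9 of 11 genes, with a median of 0.18, and endothelial markers the opposite order in 10 of 11, with a median of -0.54. The order over 2 arrays a group was not tested.

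**Figure D4:**
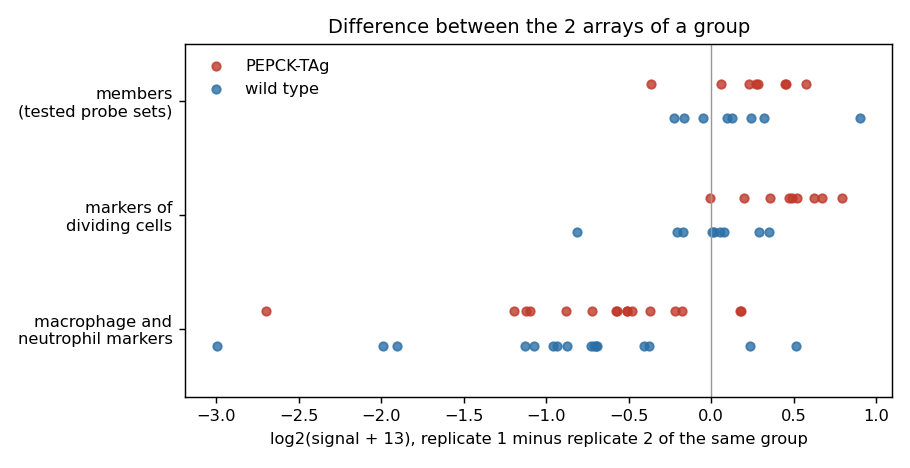
Difference between the 2 arrays of the same group, replicate 1 minus replicate 2 of log2(signal + 13), with a point per tested probe set or gene; PEPCK-TAg points are above wild-type points in each row. In PEPCK-TAg, 7 of 8 members and 8 of 9 markers of dividing cells lie above 0, and 14 of 16 macrophage and neutrophil markers below 0.

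In whole liver RNA, more dividing cells and more of these transcripts per cell cannot be told apart. The other cell types were followed through lists of marker genes. All 9 tested markers of dividing cells rose, where 6.83% of 5650 tested genes rose. Of these markers Mki67, Top2a and Cdk1 had wild-type means below the filter and were tested because of their PEPCK-TAg signal. Top2a fell below the filter without either PEPCK-TAg array and Mki67 without PEPCK-TAg replicate 1. In the fit without a filter 9 were called higher, against 3.28% of 8251 genes. Mki67 measured 671.8 and 431.0 in PEPCK-TAg and 5.8 and 8.7 in wild type, and its other probe set changed by -0.27 (limma adjusted p = 0.516). Top2a, the topoisomerase of mitotic chromosomes, measured 296.9 and 165.8 in PEPCK-TAg and 6.1 and 5.4 in wild type. Of 16 macrophage and neutrophil markers tested 5 rose, 2 without PEPCK-TAg replicate 2 and 11 without wild-type replicate 2, and their summed signal over 21 genes was 12436 and 16737 in PEPCK-TAg against 3941 and 7145 in wild type. Of 11 hepatocyte markers 0 passed the limma threshold, with 5 at an unadjusted p under 0.05 and a median of -0.43, and their summed signal was 60676 and 54914 in PEPCK-TAg against 79516 and 71584 in wild type. Summed T and natural killer cell markers gave 429 to 443 in PEPCK-TAg and 422 to 500 in wild type over 14 genes. The T cell genes Cd3d, Cd3e, Cd3g and Cd8a did not exceed a signal of 38.1 on any array, none being at 0. Other genes of the list were brighter, and of the 2 tested 0 rose. Cd7 measured 125.7 and 157.7 in PEPCK-TAg and 176.6 and 159.2 in wild type. Cd4 measured 73.8 and 76.4 in PEPCK-TAg and 67.5 and 91.4 in wild type. B and plasma cell markers summed to 2547 and 2761 in PEPCK-TAg against 2544 and 3237 in wild type, and red blood cell precursor markers to 4120 and 3605 in PEPCK-TAg against 3917 and 4751 in wild type. Of the 6 tested red cell markers 1 rose, the carbonic anhydrase gene Car2, at 1053.2 and 511.3 in PEPCK-TAg against 135.1 and 148.5 in wild type (log2 change 2.27, limma adjusted p = 0.0101), and the heme synthesis gene Alas2 changed by -2.01 (limma adjusted p = 0.0968). Krt7, Krt19 and Epcam, which define bile duct cells, did not exceed 15.9 on any array. Of the 3 tested genes of the bile duct list Krt8 and Krt18 rose, and Cftr changed by -0.37 (limma adjusted p = 0.455). Which cells held the RNA of Krt8 and Krt18 was not tested. Endothelial markers summed to 1975 and 3011 in PEPCK-TAg against 3105 and 3317 in wild type and 0 of 11 passed the limma threshold, with 3 at an unadjusted p under 0.05. Stellate cell and matrix markers summed to 3972 and 5341 in PEPCK-TAg against 4252 and 3895 in wild type, and 1 of 9 rose. Which cells held the members' RNA was not tested.

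Beside the members, 6 lists held 135 other genes of the same pathway; the array reads 76 and the filter left 61. Of these 20 rose and 0 fell, or 32.8%, where 6.83% of 5650 tested genes rose and 3.01% fell, and the median change was 0.47 against 0.01 for all genes. Of the 20, 7 had wild-type means below the filter signal and were tested because of their PEPCK-TAg signal: Cdk1, Wee1, Cdc25c, Plk4, Cdca5, Smc2 and Rbl1. Without a filter 14 of the 76 genes on the array were called higher and 0 lower, where 3.28% of 8251 genes were called higher. With the filter the count was 13 without PEPCK-TAg replicate 1. A gene was read by its brightest probe set, and the lists share Cdk1 with the markers of dividing cells. The 6.83% of all tested genes is the share to set beside the count of each list below.

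In the kinetochore list 1 of 7 tested genes rose. That gene was Spdl1, which brings dynein to kinetochores and so helps to strip the checkpoint proteins from them, at 264.4 and 245.0 in PEPCK-TAg and 56.1 and 53.2 in wild type (1.98 ± 0.19, log2 change ± SE; limma adjusted p = 0.00245). Zwint, a scaffold of the outer kinetochore (0.58), and Mad2l1bp, which extracts MAD2 from the inhibitory complex (0.44), had limma adjusted p of 0.164 and 0.159. The other Zwint probe set changed by 0.35 (limma adjusted p = 0.306). In the list of the anaphase promoting complex, 3 of 12 rose: its ubiquitin-conjugating enzyme Ube2c (1.23) and the subunits Anapc5 (0.99) and Anapc4 (0.79), with limma adjusted p of 0.0232, 0.0280 and 0.0394. The subunits Anapc2 (0.16) and Anapc13 (0.43, and 0.31 by its other probe set) did not pass (limma adjusted p = 0.601, 0.170 and 0.286). These 3 calls were weak: none of them was called without PEPCK-TAg replicate 1 or without a filter, and Anapc4 was not called in any fit without 1 array.

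Among other mitotic kinases and their regulators 6 of 13 rose. Of these Cdk1, Wee1, Cdc25c and Plk4 had wild-type means below the filter and were tested because of their PEPCK-TAg signal. With the filter at the 60th percentile 2 genes of the list were called higher, and without a filter 7 of the 18 on the array. Cdk1, the kinase that drives entry into mitosis, measured 596.4 and 518.5 in PEPCK-TAg and 10.6 and 13.6 in wild type, and rose by 4.51 ± 0.21 (log2 change ± SE; limma adjusted p = 0.000573), more than any member. Cdc25c, the phosphatase that activates CDK1, rose by 2.30 and its other probe set changed by 2.20, while Wee1, the kinase that holds CDK1 back, rose by 2.02. The centrosome kinase genes Nek2 (1.56) and Plk4 (1.92) and the polo kinase kinase gene Stk10 (1.19) rose as well. Plk3 (-0.12) and Nek7 (0.06) did not pass (limma adjusted p = 0.741 and 0.838), so within the polo family Plk1 and Plk4 rose, and Plk2 had 0.53 with a limma adjusted p of 0.148. Wee1 and Plk4 were named after their values were seen, as was Plk2, and Wee1 had a limma adjusted p of 0.0564 without PEPCK-TAg replicate 2.

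Of the passenger complex, Cdca8, which encodes borealin, rose by 1.37 and Incenp, the scaffold that activates Aurora B, by 1.21 (limma adjusted p = 0.0125 and 0.0275). The other Incenp probe set changed by -0.10 (limma adjusted p = 0.828). The call of Incenp was lost without a filter (limma adjusted p = 0.0734), without PEPCK-TAg replicate 1 (limma adjusted p = 0.145) and without either wild-type array (limma adjusted p = 0.0747 and 0.0506). With Birc5, 3 of the 4 complex members therefore had a probe set that rose, where 6.83% of 5650 tested genes rose, and Aurkb did not pass. Birc5 had a wild-type mean below the filter and was tested because of its PEPCK-TAg signal. Without a filter only Birc5 and Cdca8 of the complex were called (limma adjusted p = 0.0223 and 0.0367). The inhibitor of apoptosis genes Birc2 (0.22) and Birc3 (0.29), relatives of Birc5 without a role in the complex, did not pass (limma adjusted p = 0.459 and 0.457), and the other Birc2 probe set changed by -0.43.

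Among cohesin and condensin genes 4 of 10 rose. The condensin core genes Smc4 and Smc2 rose by 2.88 ± 0.25 and 2.69 ± 0.23 (log2 change ± SE), with limma adjusted p of 0.00186 for each, and the cohesin protector gene Cdca5 by 1.87. The other Cdca5 probe set, below the filter, changed by 2.37 in the fit without a filter. The cohesin subunit Rad21 rose by 0.88 (limma adjusted p = 0.0393), a call lost without PEPCK-TAg replicate 1, without either wild-type array, without a filter (limma adjusted p = 0.0704), with median centring (0.0712) and without a variance trend (0.0742). The cohesin subunit Stag2 (-0.15) and the condensin II subunit Ncaph2 (0.38) did not pass. The other Stag2 probe set changed by 0.22 (limma adjusted p = 0.483).

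Among transcription factors known to act on mitotic genes 4 of 13 rose. Rbl1, the pocket protein p107, rose by 2.71 ± 0.27 (log2 change ± SE; limma adjusted p = 0.00288), Tfdp1, the partner of E2F proteins, by 1.32, Foxm1, an activator of G2 genes, by 1.06, and Lin9, a core subunit of the MuvB complex, by 0.89. Another Tfdp1 probe set changed by 0.96 (limma adjusted p = 0.0366), and a further one, below the filter, by 0.45 in the fit without a filter. The calls of Lin9 and Foxm1 were each lost in at least 3 of the fits without 1 array, Foxm1 with limma adjusted p up to 0.108 and Lin9 up to 0.117. Both were also lost without a filter (limma adjusted p = 0.0847 for Foxm1 and 0.0585 for Lin9), and Foxm1 with quantile normalization, with median centring and without a variance trend. The other Foxm1 probe set lay below the filter, and in the fit without a filter it changed by 0.74 (limma adjusted p = 0.314). Nfyb (-0.39) and Nfyc (-0.07), subunits of the factor that binds CCAAT, did not pass (limma adjusted p = 0.220 and 0.834). The other Nfyc probe set, below the filter, changed by -0.56 in the fit without a filter.

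**Figure D5:**
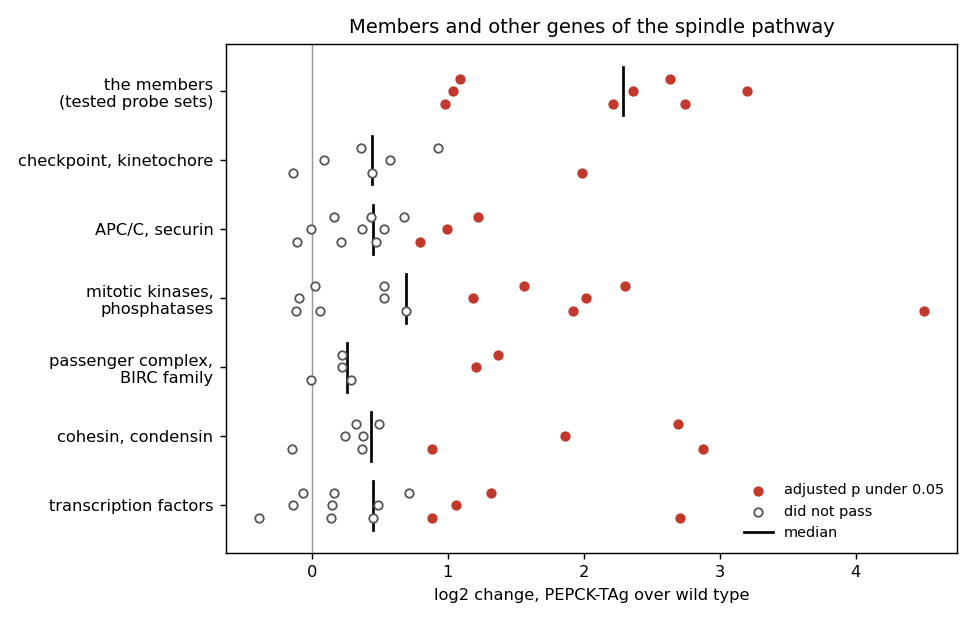
Change on the log2 scale, PEPCK-TAg over wild type, of the 8 tested member probe sets (top row) and of the tested genes of 6 lists of the same pathway, with filled points for adjusted p under 0.05 and a bar at each median. The list medians lie between 0.25 and 0.69, and the farthest point, at 4.51, is Cdk1.

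The genes outside the members whose pattern was nearest to theirs were Pclaf, Ezh2, Golm1, Ccna2 and Mcm3. Nearness was the Euclidean distance over the 4 arrays between a gene's centred log2 values and the mean of the 9 members, and these 5 of 5643 genes had distances of 0.14 to 0.19. Ezh2, a histone methyltransferase, measured 492.9 and 385.9 in PEPCK-TAg and 96.0 and 89.5 in wild type. Golm1, which encodes a Golgi membrane protein, measured 609.4 and 475.4 in PEPCK-TAg and 112.7 and 119.8 in wild type. Of the members themselves Mad2l1 lay nearest to their mean, at 0.16, and Plk1, Aurkb, Birc5 and Bub3 farthest, at 1.19 to 1.25.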

How the data were processed

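Total liver RNA of 2 PEPCK-TAg and 2 wild-type samples was hybridised to 1 MG_U74Av2 array each. The submitters' processing notes name MAS5, and the deposited intensity values are linear signals; no source used here gives the software version, scaling target or detection calls. The trimmed mean signal was 250.2 on each array, so no further scaling was applied. Per the file headers, the arrays shared chip lot, fluidics station and scan day, and no scan time was shared by 2 arrays. Within groups, log2 values correlated with r = 0.966 in PEPCK-TAg and 0.965 in wild type across tested probe sets, and between groups with 0.896 to 0.914. The ratio of 3′ to 5′ actin control signal was 4.79 to 5.06 in PEPCK-TAg and 4.06 to 4.87 in wild type. That of Gapdh was 3.36 and 2.95 in PEPCK-TAg and 3.67 and 3.80 in wild type, lower on both PEPCK-TAg arrays; its part in the results was not tested.

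Of 12488 probe sets 66 controls were left out, and 10833 of the other 12422 had 1 gene symbol (10817 matched by Entrez identifier to RefSeq names on GRCm38.p6). Signals were taken as log2(signal + 13), filtered at the 40th percentile of the mean, and fitted with limma 3.58.1 in R 4.3.3 (lmFit, eBayes with trend, 2 residual and 4.61 prior degrees of freedom), two-sided, with Benjamini-Hochberg adjustment over 7453 probe sets. The fit was also run on simulated data with independent noise, and no result above rests on that run. An exact permutation test of 2 against 2 arrays cannot give a p below 0.333 and was not run. Members and lists were chosen with earlier results of these data known. Named from each list were the 4 genes of smallest p past the threshold, any that fell and the 2 brightest that did not pass. The number of arrays limits the precision. Alternatives changed the offset, filter, scaling, variance trend, arrays used and replicate block.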

Additional observations from a re-analysis of the deposited data

How the results depend on the processing

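No member change turned negative in those of the 12 alternatives in which it was tested, and 0 member probe sets were called lower in each. All Bub1 probe sets and Bub3 101228_at were tested only in the fit without a filter, so their direction under the other alternatives is not known. Of the 8 member probe sets called higher, 5 were called with the filter at the 60th percentile, where Ttk, Aurka and Birc5 were not tested, and 5 to 8 in the fits that left out 1 array, where Plk1 93099_f_at passed the filter without either wild-type array. Aurkb 98469_at also passed the filter without either wild-type array and was not called. Without a filter 8 of 14 member probe sets were called. The other pathway genes called higher numbered 20, against 11 with the filter at the 60th percentile and 13 to 16 without 1 array. Marker genes called lower numbered 0, against 1 with the offset of 52, 2 with the filter at the 60th percentile, 4 with median centring, 5 with the replicate block and 0 to 1 without 1 array. Over the whole array 477 probe sets were called higher and 229 lower. The higher count was 288 to 420 without 1 array, and the lower count 110 to 143. The lower count was 105 without a filter, 409 with median centring, 117 without a variance trend and 444 with the replicate block. The cause of these shifts was not tested. The replicate numbers of the titles are shared between groups, and the differences between replicates 1 and 2 correlated between groups with r = 0.18 across probe sets. With 2 pairs this does not show a pairing; with the numbers as a replicate block 8 member probe sets were called higher, as without it, and 696 probe sets over the whole array (9.34%). The block raised the macrophage and neutrophil markers called higher to 12 of 16, against 5 without it. With 1 array left out, its group's remaining array is assumed to vary like the other group. Why Bub1 and Aurkb did not pass was not tested.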
